A study of Mus musculus with 27 samples.

Results

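Otx2, Pou3f1, Zic2, Zic5 and Car4 were grouped here as 5 genes of the primed epiblast state. Mouse pluripotent cells enter that state as they leave the naive state. The 5 genes were followed through 3 mouse lines during embryoid body differentiation. Every probe set whose annotation gave one of these names as its single gene symbol was taken, which found 9 probe sets among the 34945 with 1 symbol and covered all 5 genes among 18193. R1 cells are embryonic stem cells, and the other lines are induced pluripotent stem cells: H9 (3F here) was reprogrammed with 3 transcription factors and 19BL (4F here) with 4. The labels do not name these factors, and each method is represented by 1 line. The cells of day 0 were undifferentiated and grew on mitomycin-treated feeder cells with leukemia inhibitory factor (LIF). Those of day 5 and day 11 came from embryoid bodies, aggregates that differentiate without a directing factor, in medium with serum and no LIF. Each of the 9 groups (3 lines by 3 days) held 3 biological replicates, so 27 Affymetrix arrays in all. The labels do not say whether replicates were separate cultures, and p-values measure only the spread between these arrays.

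In the mouse embryo, the epiblast after implantation is primed: it keeps Pou5f1 (OCT4) but loses the naive factors, and it soon gives rise to the germ layers. OTX2 is a homeodomain factor that works with OCT4 on the enhancers of primed cells and later patterns the head. POU3F1 (OCT6) is a POU-domain factor of the primed epiblast that also promotes neural fate. ZIC2 and ZIC5 are zinc finger factors of the primed state and of the early neural plate. Car4 is not a transcription factor, although it is grouped with the others here. It encodes carbonic anhydrase 4, a membrane-anchored enzyme that interconverts carbon dioxide and bicarbonate at the cell surface.

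RefSeq promoter windows (GRCm38.p6, 300 bases around a start site) were given for Otx2, Zic5 and Car4. They are shown because Otx2 and Zic5 moved together across the arrays and Car4 did not. Capitals mark TAATCC on either strand, the bicoid-type site that OTX proteins bind.
Otx2, chr14:48665060-48665359, minus strand: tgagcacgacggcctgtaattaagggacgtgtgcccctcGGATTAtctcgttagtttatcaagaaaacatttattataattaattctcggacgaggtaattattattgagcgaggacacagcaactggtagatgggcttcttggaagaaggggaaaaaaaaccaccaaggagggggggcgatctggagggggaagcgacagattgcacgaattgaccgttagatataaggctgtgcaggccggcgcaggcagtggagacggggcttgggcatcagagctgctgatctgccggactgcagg
Zic5, chr14:122465609-122465908, minus strand: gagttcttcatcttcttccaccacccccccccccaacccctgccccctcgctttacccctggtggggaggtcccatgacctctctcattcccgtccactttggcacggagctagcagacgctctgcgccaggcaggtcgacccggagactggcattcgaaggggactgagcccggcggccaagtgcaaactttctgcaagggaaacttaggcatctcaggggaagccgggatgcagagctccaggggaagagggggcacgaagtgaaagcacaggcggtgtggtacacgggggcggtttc
Car4, chr11:84957504-84957803, plus strand: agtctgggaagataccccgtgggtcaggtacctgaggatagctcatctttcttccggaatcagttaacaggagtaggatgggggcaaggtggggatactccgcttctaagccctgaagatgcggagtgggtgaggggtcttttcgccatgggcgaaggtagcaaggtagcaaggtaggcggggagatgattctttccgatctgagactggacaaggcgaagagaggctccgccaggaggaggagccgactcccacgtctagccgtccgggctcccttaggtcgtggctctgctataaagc
The Otx2 window shown is 1 of 4 for that gene and the one with a TAATCC match, which 7.06% of all 32851 windows of this length hold. The POU octamer ATGCAAAT, searched on both strands, was found in none of the 6 windows of these genes and in 1.74% of all windows. The windows shown held 51% (Otx2), 62.7% (Zic5) and 57.3% (Car4) G and C, against a median of 52.7% over all windows. Zic5 and Zic2 lie beside each other on chromosome 14 with 1 annotated gene between them. A match or its absence says nothing about binding in these cells.

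The values are log2 signals that the authors made by robust multi-array averaging (RMA). A difference of 1 is 2-fold, and a level of one gene is not compared with that of another gene, since probes differ. Each gene is represented by its brightest probe set. Changes are differences of group means with the standard error of a limma fit to all 27 arrays. The words rose, fell, higher, lower and differed, and the word called, stand for an adjusted p under 0.05 over all 18193 genes together with a change of at least 2-fold. Lists of marker genes for other cells were read beside the 5 genes. The 5 genes and the lists were chosen with earlier results of these data known. Their counts beside the share of all genes are therefore descriptions and not an independent test. The mean over 7 core pluripotency genes was 12.66 to 12.81 in the 3 groups of day 0, the highest of the 3 days in each line. The mean over 13 feeder and fibroblast genes was 9.72, 11.14 and 10.50 at day 0 in R1, 3F and 4F, 6.30, 6.42 and 5.99 at day 5 and 10.92, 10.98 and 9.41 at day 11. Feeder genes were thus read at day 0 and again, as fibroblast genes, at day 11, and their part in any change from or to those days was not tested. The 3' minus 5' difference of control probe sets for Actb and Gapdh grows as RNA is cut short. It was 1.09 ± 0.07 (3F) to 1.45 ± 0.26 (R1) at day 0, 1.10 ± 0.08 to 1.66 ± 0.34 at day 5 and highest in 4F at day 11, at 2.69 ± 0.23 (SD, n = 3). Fewer cells of a type and less RNA per cell cannot be told apart in these bulk samples.

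**Figure D1:**
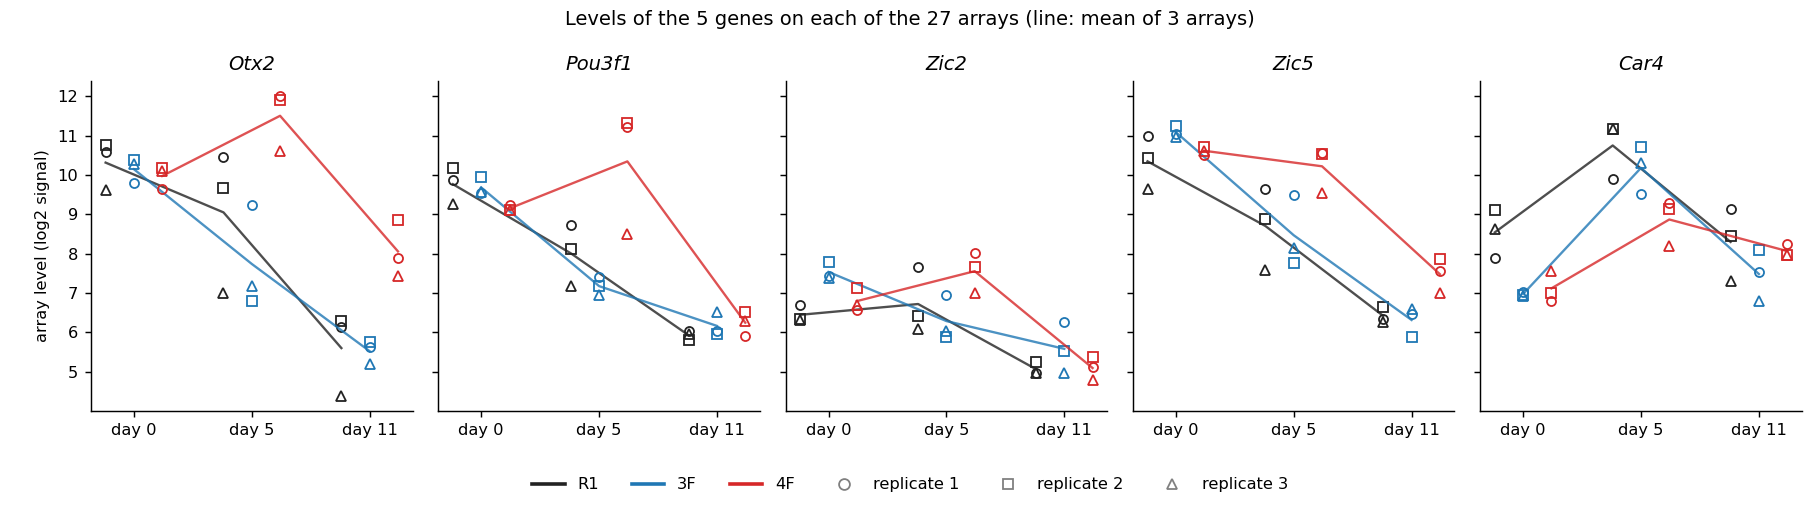
Levels of the 5 genes (log2 signal, vertical axis) on all 27 arrays by day (horizontal axis); each symbol is 1 array, symbols mark the replicate number, colours the line, and lines join the means of 3 arrays. Otx2, Pou3f1, Zic2 and Zic5 have their lowest means at day 11 in every line, and Car4 has its highest mean at day 5 in every line.

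Otx2 had its highest levels in 4F at day 5. At day 0 its 3 replicates read 10.58, 10.76 and 9.62 in R1, 9.79, 10.39 and 10.27 in 3F, and 9.64, 10.19 and 10.10 in 4F. At day 5 they read 10.47, 9.68 and 7.0 in R1, 9.23, 6.80 and 7.19 in 3F, and 12.01, 11.91 and 10.61 in 4F. The 4F arrays of day 5 all lay above the 4F arrays of day 0, whereas the R1 arrays of day 5 spread over more than 3 log2 units and overlapped day 0. At day 11 Otx2 read 6.13, 6.29 and 4.39 in R1, 5.63, 5.75 and 5.19 in 3F, and 7.90, 8.86 and 7.43 in 4F. All 4F arrays of day 11 therefore lay above all R1 and 3F arrays of that day. In 3F Otx2 had fallen by day 5 (-2.41 ± 0.69, adjusted p = 0.0103). That call was lost without replicate 2 (-1.94, adjusted p = 0.0707) or replicate 3 (-2.13, adjusted p = 0.0520) of 3F at day 5. The change was -1.27 ± 0.69 in R1 (adjusted p = 0.174) and 1.53 ± 0.69 in 4F (adjusted p = 0.125), neither called. Without replicate 1 of R1 at day 5 the R1 change was -1.97 and called (adjusted p = 0.0388), and with the 3' minus 5' index as a covariate it was -1.79 and called (adjusted p = 0.0248). The 4F change was called with array weights (1.78, adjusted p = 0.00968) or with only the compared arrays fitted (adjusted p = 0.0187). From day 0 to day 11 Otx2 fell in each line, with changes of -4.72 ± 0.69 in R1 (adjusted p = 6.77e-06), -4.63 ± 0.69 in 3F (adjusted p = 7.82e-06) and -1.92 ± 0.69 in 4F (adjusted p = 0.0288). The 4F call was lost without replicate 2 or 3 of day 0 or without replicate 1 or 3 of day 11, with changes of -1.60 to -1.85 and adjusted p of 0.0704 to 0.110. It was also lost with quantile normalization (-1.70, adjusted p = 0.0523) and cyclic loess (-1.65, adjusted p = 0.0611). Its changes from day 5 to day 11 were falls as well, of -3.45 ± 0.69 in R1 (adjusted p = 6.06e-04), -2.22 ± 0.69 in 3F (adjusted p = 0.0142) and -3.45 ± 0.69 in 4F (adjusted p = 4.09e-04). The 3F fall from day 5 was not called without replicate 1 of 3F at day 5 (-1.47, adjusted p = 0.122) or with array weights (-1.97, adjusted p = 0.101).

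Ordered by group mean, Otx2 stood highest in 4F at day 5 (11.51 ± 0.78, SD, n = 3). R1, 3F and 4F at day 0 followed (10.32 ± 0.61, 10.15 ± 0.32 and 9.98 ± 0.30), then R1 at day 5 (9.05 ± 1.82), 4F at day 11 (8.06 ± 0.73), 3F at day 5 (7.74 ± 1.31), R1 at day 11 (5.60 ± 1.05) and 3F at day 11 (5.52 ± 0.29). Only 2 of the 8 steps in that order exceeded the larger SD of the groups on either side: that between 4F at day 5 and R1 at day 0, and that between 3F at day 5 and R1 at day 11.

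Pou3f1 fell in R1 and 3F by day 5, and in 4F it stood high on 2 of the 3 arrays. Its day 0 levels were 9.88, 10.17 and 9.26 in R1, 9.54, 9.95 and 9.56 in 3F, and 9.24, 9.10 and 9.12 in 4F. At day 5 it read 8.72, 8.13 and 7.18 in R1, 7.42, 7.17 and 6.95 in 3F, and 11.22, 11.32 and 8.51 in 4F. Replicates 1 and 2 of 4F thus lay above every array of day 0, while replicate 3 lay below all 4F arrays of day 0. At day 11 every array of every line lay between 5.81 (R1) and 6.53 (4F), below every array of the earlier days. From day 0 to day 5 Pou3f1 changed by -1.76 ± 0.48 in R1 (adjusted p = 0.00572) and by -2.51 ± 0.48 in 3F (adjusted p = 2.98e-04). The R1 fall was not called without replicate 3 of R1 at day 5 (-1.34, adjusted p = 0.0511). In 4F the change was 1.20 ± 0.48 (adjusted p = 0.0782), not called. Without replicate 3 of 4F at day 5 it was 2.12 and called (adjusted p = 6.07e-05). The 4F change was also called with array weights (1.88, adjusted p = 1.06e-04) and with the mean of both probe sets (1.29, adjusted p = 0.0271). The call thus depended on 1 array and also on the weights and probe sets used. By day 11 Pou3f1 had fallen in each line, the changes from day 0 being -3.84 ± 0.48 in R1, -3.52 ± 0.48 in 3F and -2.90 ± 0.48 in 4F (adjusted p = 7.31e-07, 2.03e-06 and 2.90e-05). The change from day 5 to day 11 was -2.08 ± 0.48 in R1 (adjusted p = 0.00193) and -4.10 ± 0.48 in 4F (adjusted p = 9.66e-07), while the change of -1.01 ± 0.48 in 3F was not called (adjusted p = 0.102) unless only the compared arrays were fitted (adjusted p = 0.0123).

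The order of the Pou3f1 group means ran from 4F at day 5 (10.35 ± 1.60) through R1, 3F and 4F at day 0 (9.77 ± 0.47, 9.69 ± 0.23 and 9.15 ± 0.07), R1 and 3F at day 5 (8.01 ± 0.78 and 7.18 ± 0.24) to 4F, 3F and R1 at day 11 (6.25 ± 0.30, 6.17 ± 0.30 and 5.93 ± 0.11). The top step, between 4F at day 5 and R1 at day 0, did not exceed the SD, nor did that between R1 and 3F at day 0 or those within day 11. The second Pou3f1 probe set, which correlated with the first at r = 0.897 over the 27 arrays, gave a rise of 1.37 ± 0.39 in 4F at day 5 when all probe sets were tested (adjusted p = 0.0143). It gave -0.73 ± 0.39 in R1 (adjusted p = 0.172) and -1.02 ± 0.39 in 3F (adjusted p = 0.0557), neither called. The probe sets of Pou3f1 therefore differed in which line passed the threshold at day 5.

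Zic5 fell by day 5 in R1 and 3F, and its change in 4F was not called. It read 10.99, 10.42 and 9.64 in R1, 11.05, 11.25 and 10.98 in 3F, and 10.52, 10.72 and 10.62 in 4F at day 0. At day 5 it read 9.64, 8.89 and 7.59 in R1, 9.51, 7.77 and 8.14 in 3F, and 10.57, 10.54 and 9.56 in 4F. Replicate 3 of 4F was again the lowest of its group, and replicates 1 and 2 lay within the 4F range of day 0. At day 11 Zic5 lay between 6.25 and 6.66 in R1, 5.88 and 6.61 in 3F, and 6.99 and 7.88 in 4F. Its change from day 0 to day 5 was -1.64 ± 0.44 in R1 (adjusted p = 0.00521), -2.62 ± 0.44 in 3F (adjusted p = 7.66e-05) and -0.39 ± 0.44 in 4F (adjusted p = 0.590). The R1 fall was not called without replicate 3 of R1 at day 5 (-1.09, adjusted p = 0.0600), with the mean of the probe sets (-0.99, under 2-fold) or with only the compared arrays fitted (adjusted p = 0.0562). From day 0 to day 11 it fell in each line, the changes being -3.93 ± 0.44, -4.78 ± 0.44 and -3.14 ± 0.44 in R1, 3F and 4F (adjusted p = 1.84e-07, 8.56e-09 and 4.16e-06). The changes from day 5 to day 11 were -2.29 ± 0.44, -2.15 ± 0.44 and -2.74 ± 0.44 (adjusted p = 4.03e-04, 4.32e-04 and 3.77e-05).

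The Zic5 group means stood at 11.09 ± 0.14, 10.62 ± 0.10 and 10.35 ± 0.68 in 3F, 4F and R1 at day 0 and 10.23 ± 0.58 in 4F at day 5. Below these came 8.71 ± 1.03 and 8.47 ± 0.91 in R1 and 3F at day 5, 7.48 ± 0.45 in 4F at day 11, and 6.42 ± 0.21 and 6.32 ± 0.39 in R1 and 3F at day 11. The step from 4F at day 5 down to R1 at day 5 exceeded the SD, and so did those on either side of 4F at day 11 and that between 3F and 4F at day 0. Of the other Zic5 probe sets, one followed the brightest at r = 0.974 and fell from day 0 to day 11 in each line. From day 0 to day 5 it changed by -0.95 ± 0.52 in R1 (adjusted p = 0.185), -2.59 ± 0.52 in 3F (adjusted p = 6.06e-04) and 0.33 ± 0.52 in 4F (adjusted p = 0.739), so its R1 change was not called. The dimmest, at r = 0.802, had a mean of 5.54 over all arrays and no called change from day 0 in any line.

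Zic2 had the narrowest span of group means among the 4 transcription factors, and its fall by day 5 was called in 3F. Its only probe set had a mean of 6.34 over all arrays, and whether low signal limited the span was not tested. At day 0 it read 6.69, 6.35 and 6.31 in R1, 7.43, 7.80 and 7.39 in 3F, and 6.57, 7.12 and 6.70 in 4F. At day 5 it read 7.66, 6.42 and 6.08 in R1, 6.94, 5.90 and 6.03 in 3F, and 8.02, 7.66 and 7.0 in 4F. All 3F arrays of day 5 lay below those of day 0, whereas the 4F and R1 arrays overlapped those of day 0. By day 11 it lay between 4.97 and 5.26 in R1, 4.96 and 6.26 in 3F, and 4.79 and 5.38 in 4F. The only Zic2 change called from day 0 to day 5 was in 3F, of -1.25 ± 0.36 (adjusted p = 0.00958). It was not called without replicate 2 of 3F at day 5 (-1.05, adjusted p = 0.0587). The changes in R1 and 4F were 0.27 ± 0.36 and 0.76 ± 0.36 (adjusted p = 0.614 and 0.137), and that of R1 was -0.20 without replicate 1 of R1 at day 5. From day 0 to day 11 Zic2 fell in each line, with changes of -1.38 ± 0.36 in R1, -1.95 ± 0.36 in 3F and -1.70 ± 0.36 in 4F (adjusted p = 0.00262, 8.21e-05 and 4.22e-04). From day 5 to day 11 its changes were -1.66 ± 0.36 in R1 and -2.46 ± 0.36 in 4F (adjusted p = 0.00110 and 1.15e-05), and -0.71 ± 0.36 in 3F, which was not called (adjusted p = 0.127). Without replicate 1 of 3F at day 11 the latter was -1.05 and called (adjusted p = 0.0342), and with the 3' minus 5' index as a covariate it was -1.07 and called (adjusted p = 0.0432).

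In order of group mean, Zic2 stood at 7.56 ± 0.52 in 4F at day 5, 7.54 ± 0.23 in 3F at day 0, 6.80 ± 0.29 in 4F at day 0, 6.72 ± 0.83 in R1 at day 5, 6.45 ± 0.21 in R1 at day 0 and 6.29 ± 0.57 in 3F at day 5. The groups of day 11 followed at 5.58 ± 0.65 in 3F, 5.10 ± 0.30 in 4F and 5.07 ± 0.17 in R1. Steps over the SD were those between 3F and 4F at day 0 and between 3F at day 5 and 3F at day 11.

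Car4, the enzyme, followed another course: it rose by day 5 in every line. It read 7.89, 9.11 and 8.64 in R1, 7.04, 6.96 and 6.93 in 3F, and 6.80, 7.0 and 7.56 in 4F at day 0. At day 5 it read 9.91, 11.18 and 11.17 in R1, 9.52, 10.73 and 10.31 in 3F, and 9.29, 9.14 and 8.19 in 4F, above every day 0 array of the same line. At day 11 it read 9.14, 8.45 and 7.31 in R1, 7.54, 8.11 and 6.81 in 3F, and 8.25, 7.98 and 7.98 in 4F. Car4 rose from day 0 to day 5 by 2.21 ± 0.44 in R1 (adjusted p = 3.88e-04), by 3.21 ± 0.44 in 3F (adjusted p = 6.70e-06) and by 1.75 ± 0.44 in 4F (adjusted p = 0.00584). From day 5 to day 11 it fell in R1 (-2.45 ± 0.44, adjusted p = 1.92e-04) and in 3F (-2.70 ± 0.44, adjusted p = 3.63e-05), and the 4F value of -0.80 ± 0.44 was not called (adjusted p = 0.159). With array weights it was -1.11 and called (adjusted p = 0.00163). Against day 0 its day 11 changes were -0.24 ± 0.44, 0.51 ± 0.44 and 0.95 ± 0.44 in R1, 3F and 4F (adjusted p = 0.703, 0.361 and 0.0877). The 4F change was 1.19 and called with cyclic loess (adjusted p = 0.0404). The sign in R1 turned without replicate 2 of day 0 (0.04) or replicate 3 of day 11 (0.25). The second Car4 probe set correlated with the first at r = 0.988 and rose at day 5 in each line, by 2.17 ± 0.49, 3.65 ± 0.49 and 1.82 ± 0.49.

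The highest Car4 group means were 10.75 ± 0.73 in R1, 10.18 ± 0.61 in 3F and 8.87 ± 0.60 in 4F at day 5. R1 at day 0 followed at 8.55 ± 0.62, R1, 4F and 3F at day 11 at 8.30 ± 0.92, 8.07 ± 0.16 and 7.49 ± 0.65, and 4F and 3F at day 0 at 7.12 ± 0.40 and 6.98 ± 0.06. The step between 3F and 4F at day 5 was the only one larger than the SD.

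**Figure D2:**
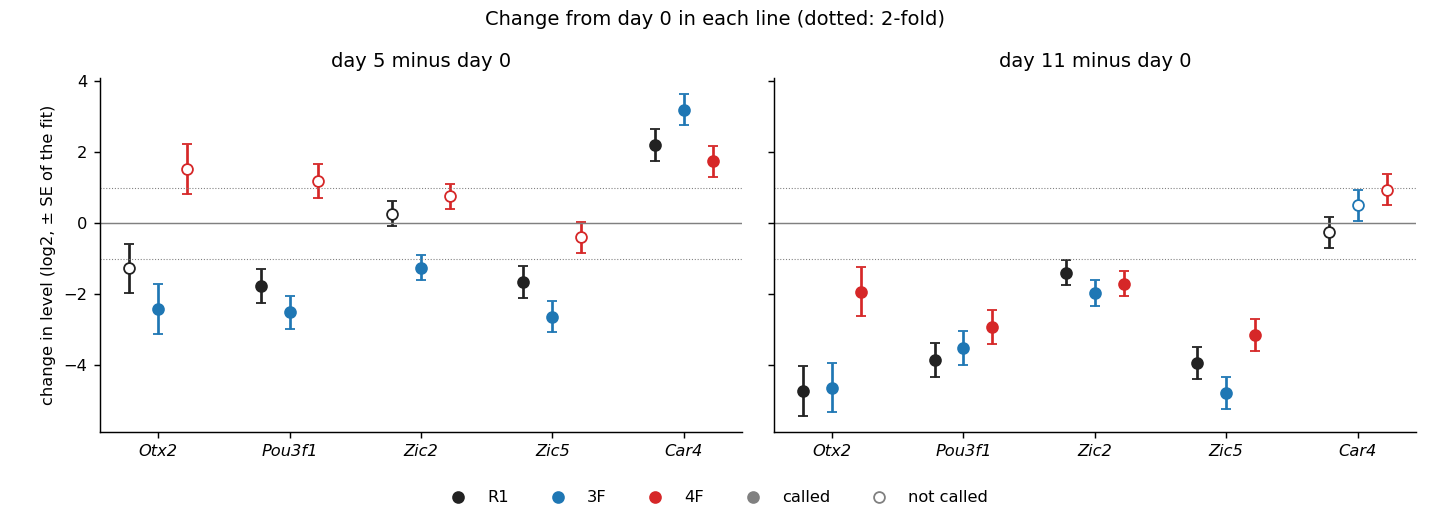
Change of each gene from day 0 to day 5 and to day 11 (log2, vertical axis; points are differences of means of 3 against 3 arrays, bars the standard error of the limma fit) in R1, 3F and 4F; filled points passed an adjusted p under 0.05 and 2-fold, dotted lines mark 2-fold. At day 5 the 4F points of Otx2, Pou3f1 and Zic2 lie above 0 and are open, while by day 11 the 4 transcription factors are below 0 and filled in every line.

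Counted over the 5 genes, 3 were called from day 0 to day 5 in R1, 1 up and 2 down, where 14.7% of all genes were called in either direction. In 3F all 5 were called, 1 up and 4 down (12.4% of all genes), and in 4F 1 was, Car4 (7.07%). The median change was -1.27 in R1, -2.41 in 3F and 1.20 in 4F, against -0.02, 0.00 and 0.02 over all genes. From day 5 to day 11 5 fell in R1 (11.6% of all genes called), 3 in 3F (16.9%) and 4 in 4F (15.8%), with medians of -2.29, -2.15 and -2.74 against -0.05, -0.01 and -0.15. From day 0 to day 11 the same 4 transcription factors were called down in every line, Otx2 in 4F with the exceptions above (23.6% of all genes called in R1, 23.6% in 3F and 20.8% in 4F), with medians of -3.84, -3.52 and -1.92 against -0.04, 0.01 and -0.11. Leaving out 1 array moved counts by more than 1.5 times only from day 0 to day 5. The count that fell in R1 ran from 0 without replicate 3 of day 5 to 3 without replicate 1 of day 5. That in 3F was 2 without replicate 2 of day 5, and the count that rose in 4F was 2 without replicate 3 of day 5.

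**Figure D3:**
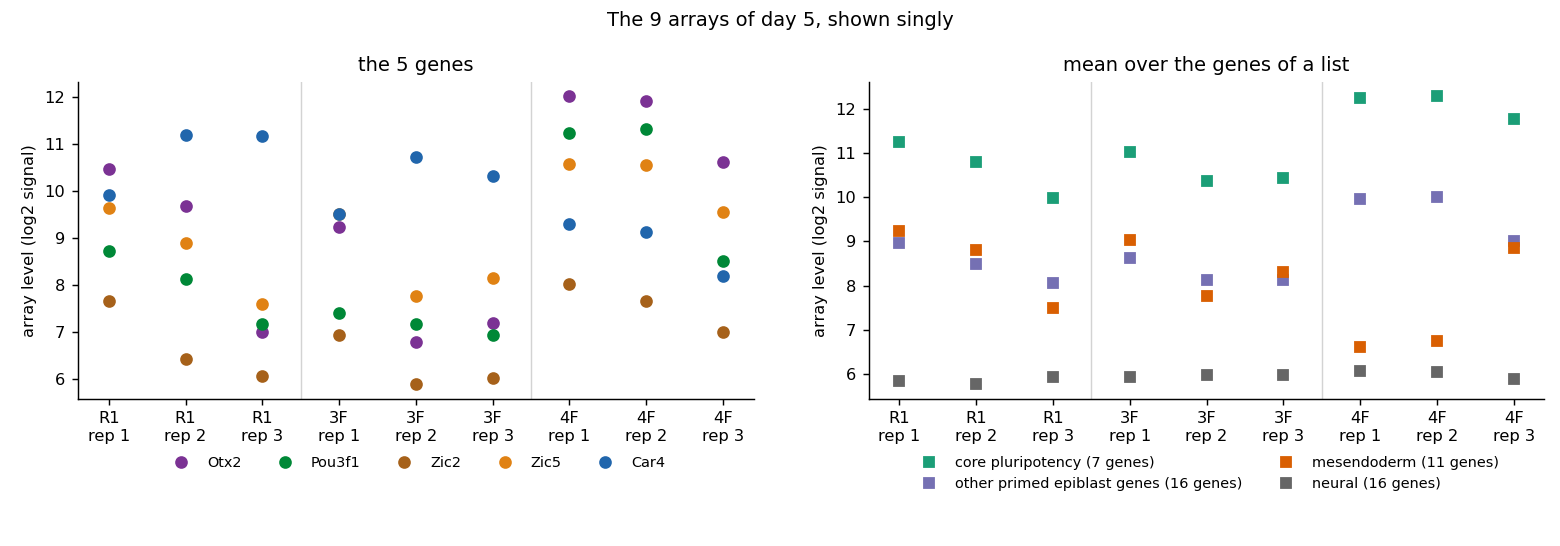
The 9 arrays of day 5 one by one (horizontal axis: line and replicate; vertical axis: log2 signal). The left panel shows the 5 genes and the right panel the mean over the genes of 4 marker lists; replicate 3 of 4F has lower Otx2, Pou3f1, Zic2, Zic5 and Car4 and a higher mesendoderm mean (8.86) than replicates 1 and 2 of its group (6.62 and 6.74).

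At day 5 the 4F embryoid bodies differed from 3F in all 5 genes and from R1 in 4, but the 4F arrays were not alike. Pou3f1 read 11.22 and 11.32 on replicates 1 and 2 and 8.51 on replicate 3. Otx2 read 12.01, 11.91 and 10.61, Zic2 8.02, 7.66 and 7.0, Zic5 10.57, 10.54 and 9.56, and Car4 9.29, 9.14 and 8.19, with replicate 3 lowest each time. The mean of 11 mesendoderm genes ran the other way, at 6.62, 6.74 and 8.86, and Mixl1, a homeobox gene of the primitive streak, read 7.94, 8.15 and 13.02. On the R1 arrays the same means were 9.24, 8.80 and 7.49, and on the 3F arrays 9.02, 7.76 and 8.30. The mesendoderm mean of replicate 3 of 4F thus lay inside the range of the R1 and 3F arrays, as did its Pou3f1 and Zic5, while its Otx2 lay above them all. The mean of 7 core pluripotency genes was 12.24, 12.28 and 11.76 in 4F, above the 9.98 to 11.25 of the R1 arrays and the 10.37 to 11.03 of the 3F arrays. The mean of 16 neural genes lay between 5.77 and 6.07 on all 9 arrays. Within R1 the arrays also spread: replicate 1 had the highest Otx2, Pou3f1, Zic2 and Zic5 and the lowest Car4, and replicate 3 the lowest of those 4 transcription factors.

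Between 4F and R1 at day 5, 3 of the 5 genes were higher in 4F and 1 lower (5.45% of all genes called). Pou3f1 was higher by 2.34 ± 0.48 (adjusted p = 0.00205), Otx2 by 2.46 ± 0.69 (adjusted p = 0.0211) and Zic5 by 1.52 ± 0.44 (adjusted p = 0.0247), and Car4 was lower (-1.88 ± 0.44, adjusted p = 0.00581). Zic2 differed by 0.84 ± 0.36, which was not called (adjusted p = 0.139). Without replicate 1 of R1 the Zic2 difference was 1.31 and called (adjusted p = 0.0128). The Otx2 and Zic5 calls rested on single arrays. Without replicate 3 of R1 they were 1.43 and 0.96 (adjusted p = 0.199 and 0.214), without replicate 1 of 4F 2.21 and 1.34 (0.109 and 0.126), and without replicate 2 of 4F 2.26 and 1.36 (0.103 and 0.125). With only the compared arrays fitted, none of these 3 was called higher (adjusted p = 0.117 for Otx2, 0.102 for Pou3f1 and 0.111 for Zic5), and with the mean of probe sets Zic5 was not called (1.14, adjusted p = 0.0507). The median difference of the 5 genes was 1.52, against 0.03 over all genes. The count of genes higher in 4F was 1 without any single one of these 3 arrays and 4 without replicate 1 of R1.

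Between 4F and 3F at day 5, 4 genes were higher in 4F and 1 lower (7.48% of all genes called). Otx2 was higher by 3.77 ± 0.69 (adjusted p = 5.47e-04), Pou3f1 by 3.17 ± 0.48 (adjusted p = 7.01e-05), Zic5 by 1.75 ± 0.44 (adjusted p = 0.00715) and Zic2 by 1.27 ± 0.36 (adjusted p = 0.0150). Car4 was lower (-1.31 ± 0.44, adjusted p = 0.0422). In all 5 genes the 4F and 3F arrays did not overlap, and the same held for 45.4% of all genes. The Otx2 and Pou3f1 differences kept their call without any single array. The Zic2 call was lost without replicate 2 or 3 of 3F or replicate 1 or 2 of 4F (1.04 to 1.22, adjusted p = 0.0621 to 0.106). The Zic5 call was lost without replicate 2 of 3F (1.40, adjusted p = 0.0613), and the Car4 call without any single array other than replicate 1 of 3F (-0.97 to -1.52, adjusted p = 0.0549 to 0.203). Quantile normalization (-1.22, adjusted p = 0.0770) and cyclic loess (adjusted p = 0.0527) also ended the Car4 call. With every probe set tested, the brightest of Car4 was not called (adjusted p = 0.0510). The second Car4 probe set was lower in 4F (-1.62 ± 0.49, adjusted p = 0.0294). The median difference of the 5 genes was 1.75, against 0.03 over all genes, and the count higher in 4F was 2 without replicate 2 of 3F. The 3' minus 5' index was 1.62 ± 0.08 in 4F and 1.10 ± 0.08 in 3F at day 5, and with it as a covariate Zic2 (0.85, adjusted p = 0.241) and Zic5 (1.44, adjusted p = 0.101) were not called. The index ran from 1.55 to 1.71 in 4F and from 1.01 to 1.17 in 3F, so line and index cannot be told apart there. Between 3F and R1 at day 5, 0 of the 5 genes differed (0.374% of all genes called).

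Whether the lines changed differently from day 0 to day 5 was tested as a difference of changes. 4F and R1 differed in 1 of the 5 genes, Pou3f1 (3.64% of all genes called), and 4F and 3F in 4 (3.47%). Pou3f1 had changed by -1.76 in R1 and 1.20 in 4F, a difference of 2.95 ± 0.67 (adjusted p = 0.0136). Against 3F the differences were 3.70 ± 0.67 for Pou3f1 (adjusted p = 0.00236), 3.94 ± 0.98 for Otx2 (adjusted p = 0.0221), 2.01 ± 0.50 for Zic2 (adjusted p = 0.0224) and 2.23 ± 0.62 for Zic5 (adjusted p = 0.0441). These comparisons share the 4F arrays, and the 5 genes were chosen with earlier results of these data known. The difference between 4F and R1 was 2.80 ± 0.98 for Otx2 (adjusted p = 0.113), 1.25 ± 0.62 for Zic5 (adjusted p = 0.305) and 0.49 ± 0.50 for Zic2 (adjusted p = 0.709). For Car4 it was -0.46 ± 0.62 against R1 (adjusted p = 0.799) and -1.45 ± 0.62 against 3F (adjusted p = 0.247), none of them called. Between 3F and R1, 0 of the 5 changes differed (0.374% of all genes called).

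Of these differences only that of Pou3f1 against 3F kept its call without each single array. Pou3f1 against R1 was not called without replicate 3 of R1 at day 5 (2.54, adjusted p = 0.0529) or without replicate 1 (2.52, adjusted p = 0.0597) or 2 (2.47, adjusted p = 0.0572) of 4F at day 5. Otx2 against 3F was not called without replicates 2 or 3 of 3F at either day, without replicate 1 of 4F at day 0, or without replicate 1 or 2 of 4F at day 5 (3.47 to 3.88, adjusted p = 0.0523 to 0.0804). Zic2 against 3F was not called without replicate 2 of 3F at day 0, replicate 2 or 3 of 3F at day 5, replicate 1 or 3 of 4F at day 0, or replicate 1 or 2 of 4F at day 5 (1.78 to 1.96, adjusted p = 0.0552 to 0.0867). Zic5 against 3F was called only with all arrays or without replicate 1 of 3F or replicate 3 of 4F at day 5; otherwise it was 1.88 to 2.29 (adjusted p = 0.0737 to 0.147). The Zic5 call was also lost with median centring (2.19, adjusted p = 0.0503) and with the 3' minus 5' index as a covariate (2.04, adjusted p = 0.0749). With every probe set tested, the brightest of Zic5 was not called (adjusted p = 0.0595). Another Zic5 probe set was called (2.92 ± 0.73, adjusted p = 0.0312), and the dimmest was not (1.03 ± 0.41, adjusted p = 0.253). The Pou3f1 call against R1 was lost with only the compared arrays fitted (adjusted p = 0.0951). With every probe set tested, the second of Pou3f1 was called against R1 (2.10 ± 0.55, adjusted p = 0.0380) and against 3F (2.40 ± 0.55, adjusted p = 0.0168). The Otx2 difference against R1 was called without replicate 1 of R1 at day 5 (3.51, adjusted p = 0.0356), with array weights (2.66, adjusted p = 0.0229) or with the replicate number as a block (adjusted p = 0.0423). The Car4 difference against 3F was called with array weights (-1.34, adjusted p = 0.0253). The number of genes called against 3F thus ran from 1 to 4, and against R1 from 0 to 2, as single arrays were left out.

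Before differentiation 1 difference between lines in these genes was called. Those of Car4 between 4F and R1 and of Zic2 between 3F and R1 exceeded 2-fold but were not called. Car4 was lower in 3F than in R1 (-1.57 ± 0.44, adjusted p = 0.0330), the only 1 of the 5 called between these lines (3.09% of all genes). It was lost with the 3' minus 5' index as a covariate (-1.16, adjusted p = 0.27), without replicate 2 (-1.28, adjusted p = 0.206) or replicate 3 of R1 or without any of the 3F replicates (-1.52 to -1.60, adjusted p = 0.0784 to 0.124). The Car4 difference between 4F and R1 was -1.42 ± 0.44 (adjusted p = 0.107), and was called without replicate 1 of R1 (-1.75, adjusted p = 0.0272) or with array weights (-1.71, adjusted p = 0.00384). None, 0 of 5, was called between 4F and R1 (1.12% of all genes) and 0 of 5 between 4F and 3F (1.98%). The Zic2 difference between 3F and R1 was 1.09 ± 0.36, not called (adjusted p = 0.0649). It was called without replicate 1 of R1 (1.21, adjusted p = 0.0406), with cyclic loess (adjusted p = 0.0469), only the compared arrays (adjusted p = 0.0146), array weights (adjusted p = 0.00361) or the replicate number as a block (adjusted p = 0.0229).

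At day 11 Otx2 was the only 1 of the 5 genes whose brightest probe set was called higher in 4F than in both other lines. Otx2 was higher in 4F than in R1 by 2.46 ± 0.69 (adjusted p = 0.0119) and than in 3F by 2.54 ± 0.69 (adjusted p = 0.00833). Every 4F array lay above every array of the other lines, as was also true of Zic5. Groups did not overlap in 38.9% of all genes between 4F and R1 and in 29.6% between 4F and 3F. The 4F arrays also had the highest 3' minus 5' index (2.69 ± 0.23, against 1.94 ± 0.20 in R1 and 1.55 ± 0.23 in 3F). With the index as a covariate the Otx2 differences were 0.58 (adjusted p = 0.755) and -0.32 (adjusted p = 0.882). The index of the 4F arrays of day 11 (2.44 to 2.89) lay above that of every other array (at most 2.16, in R1 at day 11). Line and index therefore cannot be told apart at day 11. The mean of the 7 core pluripotency genes, which was not tested, was 9.80 ± 0.48 in 4F, 8.07 ± 0.78 in R1 and 7.77 ± 0.18 in 3F at day 11. Of these 7 genes 5 were higher in 4F than in R1 and 5 than in 3F, and 1 in each case with the index as a covariate; 3 were higher than in R1 with only the compared arrays fitted. Against R1, 1 of the 5 genes was higher (8.31% of all genes called). The Otx2 call was lost without replicate 3 of R1 (1.85, adjusted p = 0.0793) or replicate 2 of 4F (2.06, adjusted p = 0.0701), and then 0 genes were called. Against 3F 2 were higher, Otx2 and Zic5 (10% of all genes called). The Otx2 call was lost without replicate 2 of 4F (2.14, adjusted p = 0.0524). Zic5 was higher in 4F than in 3F by 1.16 ± 0.44 (adjusted p = 0.0491), a call lost without replicate 1 or 2 of either line (0.94 to 1.24, adjusted p = 0.0773 to 0.168). It was also lost with median centring (1.12, adjusted p = 0.0532), cyclic loess (1.15, adjusted p = 0.0537), the mean of probe sets (0.89, adjusted p = 0.0709), only the compared arrays (adjusted p = 0.0642) or the index as a covariate (0.48, adjusted p = 0.754). Its difference from R1, 1.06 ± 0.44, was not called (adjusted p = 0.0845), and was called with the replicate number as a block (adjusted p = 0.0410), with array weights (1.37, adjusted p = 0.00138) or with only the compared arrays fitted (adjusted p = 0.0268). Among all probe sets tested, another of Zic5 (r = 0.974 with the brightest) was higher in 4F than in both other lines. It differed by 1.58 ± 0.52 from R1 (adjusted p = 0.0286) and by 1.79 ± 0.52 from 3F (adjusted p = 0.0121). The dimmest Zic5 probe set was called in neither comparison (-0.10 ± 0.29 and -0.27 ± 0.29). Between 3F and R1 0 of 5 differed at day 11 (1.02% of all genes). The changes from day 0 to day 11 differed in 0 of 5 genes between 3F and R1 (1.5% of all genes called), 4F and R1 (9.5%) and 4F and 3F (6.41%). The largest of them was that of Otx2, at 2.80 ± 0.98 between 4F and R1 (adjusted p = 0.0567) and 2.71 ± 0.98 between 4F and 3F (adjusted p = 0.0826). With the replicate number as a block both were called (adjusted p = 0.0213 and 0.0336), and without replicate 3 of 4F at day 11 the first was 3.11 and called (adjusted p = 0.0376). The first was also called with quantile normalization (2.87, adjusted p = 0.0486), cyclic loess (2.99, adjusted p = 0.0424) and dim genes left out (adjusted p = 0.0462), and both with array weights (3.16 and 3.20, adjusted p = 0.00358 and 0.0325) and with only the compared arrays fitted (adjusted p = 0.0293 and 0.00550).

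**Figure D4:**
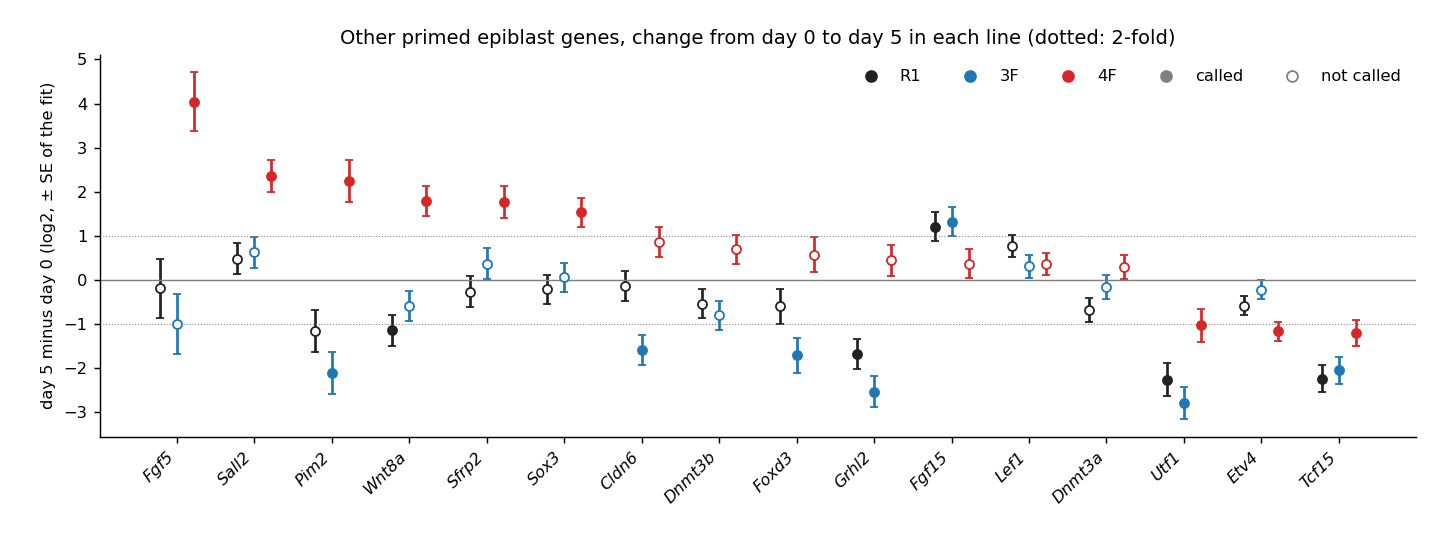
Change from day 0 to day 5 (log2, vertical axis; bars are the standard error of the limma fit) of 16 other genes of the primed epiblast in R1, 3F and 4F, ordered by the 4F change; filled points passed an adjusted p under 0.05 and 2-fold. Fgf5 to Sox3 are filled above 0 in 4F alone, while Utf1 and Tcf15 are filled below 0 in all 3 lines.

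A list of 17 other genes used as marks of the primed or early postimplantation epiblast, of which 16 were measured, was read beside the 5. In 4F 6 of the 16 rose and 3 fell from day 0 to day 5 (7.07% of all genes called), with a median change of 0.63 against 0.02 over all genes. The largest rises were those of Fgf5, a growth factor that is the standard mark of the primed epiblast (4.04 ± 0.67, adjusted p = 1.63e-04), Sall2 (2.36 ± 0.35), Pim2 (2.24 ± 0.48) and Wnt8a (1.79 ± 0.34), which encode a zinc finger factor, a kinase and a Wnt ligand. Tcf15 (-1.21 ± 0.30), Etv4 (-1.17 ± 0.21) and Utf1 (-1.03 ± 0.37) fell. Utf1 was not called without any single 4F array of day 0 (-0.96 to -1.07, adjusted p = 0.0868 to 0.134), and then 2 fell. Without replicate 3 of 4F at day 5, 8 rose and 1 fell, Tcf15 (-0.73, adjusted p = 0.0533) and Utf1 (-0.54, adjusted p = 0.336) no longer being called. With quantile normalization 7 rose and 0 fell, and 1 fell with array weights or the mean of probe sets. In R1 1 rose and 4 fell (14.7% of all genes called, median -0.56 against -0.02), and in 3F 1 rose and 6 fell (12.4%, median -0.70 against 0.00). Fgf15 was the gene that rose in both, by 1.20 ± 0.33 and 1.32 ± 0.33. That of R1 was not called without replicate 3 of R1 at day 0 (0.84, adjusted p = 0.0579) or with array weights (0.97, under 2-fold). Fgf5 read 10.28, 9.51 and 6.75 in R1, 9.30, 6.59 and 6.82 in 3F, and 10.43, 10.56 and 9.09 in 4F at day 5, and replicate 3 was the lowest of the R1 arrays, as it was for Otx2. At day 0 its mean was 5.98 ± 0.36 in 4F, lower than the 9.04 ± 0.21 of R1 (adjusted p = 0.0134) and the 8.57 ± 0.11 of 3F (adjusted p = 0.0281). These day 0 calls of Fgf5 were lost without replicate 3 of R1 or replicate 1 or 2 of 4F (adjusted p = 0.0569 to 0.0805), and against 3F without any single array of either group (adjusted p = 0.0614 to 0.113).

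At day 5, 10 of the 16 were higher in 4F than in R1 and 0 lower (5.45% of all genes called, median 1.28 against 0.03), and 12 were higher than in 3F and 0 lower (7.48%, median 1.69 against 0.03). With only the compared arrays fitted, the count against R1 was 3, Pim2 (adjusted p = 0.123) and Foxd3 (adjusted p = 0.0828) among those not called. The largest differences from R1 were those of Tcf15 (2.31 ± 0.30), Sfrp2 (2.14 ± 0.35), Pim2 (2.0 ± 0.48) and Foxd3 (1.85 ± 0.40). Those from 3F were Pim2 (2.63 ± 0.48), Tcf15 (2.47 ± 0.30), Fgf5 (2.46 ± 0.67) and Foxd3 (2.26 ± 0.40). Without replicate 1 or replicate 2 of 4F the count against R1 was 6, Pim2 no longer being called (1.68 and 1.71, adjusted p = 0.0607 and 0.0600). Pim2 was also lost without replicate 3 of R1 (1.34, adjusted p = 0.0718). Fgf5 against 3F was lost without replicate 2 or 3 of 3F or replicate 1 or 2 of 4F (1.97 to 2.25, adjusted p = 0.0675 to 0.0911). By day 11, 13 of the 16 had fallen and 1 had risen from day 0 in R1 (median -1.79), 10 and 1 in 3F (median -2.15), and 9 and 1 in 4F (median -1.55), against -0.04, 0.01 and -0.11 over all genes. Of all genes 23.6%, 23.6% and 20.8% were called in these comparisons. With single arrays left out, 10 to 13 of the list fell in R1, 9 to 11 in 3F and 9 to 10 in 4F. Under the other settings 9 to 13, 9 to 12 and 8 to 11 fell. Dnmt3b, a DNA methyltransferase of the early embryo, changed by -4.17 ± 0.33, -4.51 ± 0.33 and -2.97 ± 0.33 in R1, 3F and 4F. The gene that had risen in each line was Sfrp2, a secreted Wnt antagonist, by 2.24 ± 0.35, 1.99 ± 0.35 and 1.13 ± 0.35, and the 4F rise was not called without replicate 3 of day 11 (0.68, adjusted p = 0.117), with array weights (0.99, under 2-fold) or with the 3' minus 5' index as a covariate (1.73, adjusted p = 0.112). 

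Of 21 measured paralogs of the 5 genes, 2 rose and 1 fell from day 0 to day 5 in R1 (14.7% of all genes called), 1 rose and 2 fell in 3F (12.4%), and 2 rose and 0 fell in 4F (7.07%), shares near those of all genes. The median changes were 0.01, 0.02 and 0.23. Without any 1 of the R1 arrays of day 5, 2 fell in R1, and without replicate 1 of 3F at day 0 or replicate 2 or 3 of 3F at day 5 1 fell in 3F. Without replicate 1 of 4F at day 5 1 rose in 4F. With the mean of probe sets 1 rose and 0 fell in R1 and 1 fell in 3F, as with quantile normalization or cyclic loess in 3F, and with no minimum change 3 rose and 3 fell in R1, 3 and 3 in 3F, and 5 rose in 4F. Otx1, Crx, Pou3f2, Pou3f3 and Zic4 had no called change in any of the within-line comparisons. Zic1, a neural zinc finger gene, rose from day 0 to day 11 in 4F, by 2.29 ± 0.35 to 7.17 ± 0.45 (adjusted p = 1.20e-05), where Zic2 and Zic5 fell. Among the carbonic anhydrases Car14, a membrane-bound form like Car4, rose from day 0 to day 5 in all 3 lines. Its changes were 2.86 ± 0.34 in R1, 3.35 ± 0.34 in 3F and 2.91 ± 0.34 in 4F (adjusted p = 1.18e-06, 1.13e-07 and 2.43e-06). Car14 fell again from day 5 to day 11 (-2.73 ± 0.34, -3.20 ± 0.34 and -3.06 ± 0.34). Car2, a cytosolic form, fell from day 0 to day 11 in all 3 lines (-4.16 ± 0.36, -3.37 ± 0.36 and -3.92 ± 0.36). 

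Across all 27 arrays the 4 transcription factors followed one another, with Pearson r from 0.826 (Otx2 with Zic2) to 0.924 (Pou3f1 with Zic5). Car4 did not follow them (r from -0.159 to 0.014). These are descriptions over arrays that share 9 groups. Among 8760 genes whose group means spanned at least 1 log2 unit, the genes most like Otx2 were Kcnk1 (r = 0.952), Hook1 (0.950), Pou5f1 (0.948), Rundc3b (0.943) and Cdh1 (0.936). Pou5f1 encodes the pluripotency factor OCT4 and Cdh1 the epithelial adhesion protein E-cadherin. At day 5 Pou5f1 was higher in 4F (12.34 ± 0.39) than in R1 (10.17 ± 1.38, adjusted p = 0.00672) and 3F (10.04 ± 0.61, adjusted p = 0.00299), after group means of 12.70 to 12.78 at day 0. The Pou5f1 call against R1 was lost without replicate 3 of R1 (1.38, adjusted p = 0.0669). The genes most like Pou3f1 were Pdzd4 (0.978), Fsd1 (0.965), Dtx1 (0.949), Tunar (0.948) and Phc1 (0.945). For Zic5 they were L1td1 (0.980), Phc1 (0.978), Slc35f2 (0.977), Sult4a1 (0.975) and Map7d2 (0.974), and for Zic2 Rab25 (0.927), Cbs (0.916), Ccdc40 (0.911), Ncan (0.903) and Necab3 (0.902). Phc1, which encodes a Polycomb protein, stood in the lists of Pou3f1 and Zic5. Those most like Car4 were Gchfr (0.901), Polg (0.874), H2-Oa (0.859), Ptpn18 (0.854) and Pcyt2 (0.852). Gchfr, which encodes the feedback regulator of GTP cyclohydrolase, stood highest at day 5 in each line, at 8.35 ± 0.18 in R1, 8.07 ± 0.31 in 3F and 7.66 ± 0.18 in 4F.

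Genes of neural tissue, where Otx2, Pou3f1, Zic2 and Zic5 also act, were read as another list, which shares Zic1, Pou3f2 and Pou3f3 with the paralogs. Of its 16 measured members 0 rose and 4 fell from day 0 to day 5 in each line, with median changes of -0.03, -0.20 and -0.01 against -0.02, 0.00 and 0.02 over all genes. Of all genes 14.7%, 12.4% and 7.07% were called in these comparisons. With the mean of probe sets 2, 2 and 1 fell. In 4F 2 fell with only the compared arrays fitted, 1 rose and 2 fell with the 3' minus 5' index as a covariate, and 2 rose and 4 fell with no minimum change, under which 1 rose in R1. The count that fell was 2 in R1 without replicate 1 of R1 at day 0. In 4F it was 2 without replicate 1 of 4F at day 0 or replicate 3 of 4F at day 5. In 3F it was 3 whichever single array of 3F at day 0 or day 5 was left out. The mean over the list lay between 5.85 ± 0.09 and 6.00 ± 0.10 in the 3 groups of day 5, against 6.21 ± 0.15 to 6.52 ± 0.04 at day 0.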

How the data were processed

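RNA of 27 samples was labelled as biotinylated cRNA and hybridised to Affymetrix arrays, 1 array per sample. The authors deposited log2 signals made by RMA, per the submitters' processing notes; the version is not given in the sources used here. Signals spanned 3.00 to 15.67 and were taken without further scaling. Of the 45101 probe sets, the 64 controls and those with several symbols (932) or none (9160) were set aside, and each of 18193 genes took its brightest probe set. Gene identifiers were matched to RefSeq (34741 found), which altered 0 symbols. Arrays carry no read depth, so precision rests on their number. Within groups, log2 differences between pairs of arrays had SDs of 0.183 to 0.702.

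A limma model (version 3.58.1, in R 4.3.3) with a mean for each group and moderated variances gave 24 comparisons: 9 within lines, 9 between lines and 6 differences of changes. Benjamini-Hochberg adjustment ran over all genes. The 5 genes and the 13 lists (140 genes, 135 measured) were chosen with earlier results of these data known. Named by rule were the 5 genes, up to 4 called members of a list with the largest changes, the paralogs, and the 5 genes correlating best with each over 27 arrays (provisional symbols left out). Etv4, Utf1 and Tcf15 (4F falls), Fgf15, Dnmt3b across lines, Sfrp2 at day 11, Mixl1, Gchfr by group, Fgf5 by array and at day 0 and Pou5f1 by group were named after their values were seen. Python 3.11.15 with numpy 2.4.6 and pandas 2.3.3 made the tables, and matplotlib 3.10.9 the figures.

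Alternatives were median centring, quantile normalization, cyclic loess, dim genes removed (14698 genes kept), averaged probe sets per gene, every probe set on its own, only the arrays compared, a trended robust variance, weights per array, the replicate number as a block, the 3' minus 5' index as a covariate, no minimum change, and each array left out. Residuals of arrays with the same number correlated above 0.1 in all 3 pairs in 3 of 18 comparisons of 2 groups: day 5 against day 11 in 4F (0.13, 0.10 and 0.15), 4F against R1 at day 0 (0.48, 0.25 and 0.33) and 3F against R1 at day 11 (0.12, 0.49 and 0.39). As the labels pair no samples, the model had no block.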

Additional observations from a re-analysis of the deposited data

Results flagged for a closer look

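These results stood out because the change from day 0 to day 5 differed between lines in a test of the difference itself. Between 4F and R1 the Pou3f1 changes differed by 2.95 (adjusted p = 0.0136). Between 4F and 3F the differences were 3.94 for Otx2 (adjusted p = 0.0221), 3.70 for Pou3f1 (adjusted p = 0.00236), 2.01 for Zic2 (adjusted p = 0.0224) and 2.23 for Zic5 (adjusted p = 0.0441). Leaving out single arrays ended each of these calls except that of Pou3f1 between 4F and 3F, as the report gives. The Zic5 difference was also not called with median centring (adjusted p = 0.0503) or the 3' minus 5' index as a covariate (adjusted p = 0.0749). With every probe set tested, the brightest of Zic5 was not called (adjusted p = 0.0595), nor was the dimmest (adjusted p = 0.253). Another Zic5 probe set was called (2.92, adjusted p = 0.0312). The Pou3f1 difference between 4F and R1 was not called with only the compared arrays fitted (adjusted p = 0.0951). With every probe set tested, the second of Pou3f1 was called against R1 (2.10, adjusted p = 0.0380) and against 3F (2.40, adjusted p = 0.0168).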

How the results depend on the processing

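Of the 74 values of the 5 genes printed, all kept their direction and their side of the threshold with a trended robust variance or with no minimum change, and 73 did with dim genes left out. Directions turned in 8 cases. With the 3' minus 5' index as a covariate, Otx2 between 4F and 3F at day 11 was -0.32, and Car4 from day 0 to day 11 was -0.0090 in 3F and -0.62 in 4F. With the mean of probe sets, Zic5 from day 0 to day 5 in 4F was 0.050. With array weights the Car4 difference between 4F and R1 in the change to day 5 was 0.24. With single arrays left out, Zic2 from day 0 to day 5 in R1 ran from -0.20 to 0.60, and Car4 from day 0 to day 11 in R1 from -0.66 to 0.25, with 0.039 without replicate 2 of day 0. The index as a covariate ended every call of a difference between lines at day 11. It left 0 genes higher in 4F against R1 and 0 against 3F. The 4F arrays of that day have a higher index than any other array, so line and index cannot be told apart there. The covariate also left 2 higher in 4F than in 3F at day 5 and 0 lower in 3F than in R1 at day 0.

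Counts of called genes moved by more than 1.5 times as follows, and the single calls gained or lost otherwise stand with each gene in the report. In R1 1 fell from day 0 to day 5 with the mean of probe sets or only the arrays compared. In 4F 2 rose under either of these and 3 with array weights. With cyclic loess 1 rose in 4F from day 0 to day 11. At day 0, 1 was higher in 3F than in R1 with cyclic loess, only the arrays compared, array weights or a replicate block, and 1 was lower in 4F than in R1 with array weights. At day 5, 0 were higher in 4F than in R1 with only the arrays compared, and 2 were lower in 3F than in R1 with array weights. With quantile normalization or cyclic loess 0 were lower in 4F than in 3F. With every probe set tested on its own 0 were lower by their brightest, though the second Car4 probe set was called. At day 11, 2 were higher in 4F than in R1 with only the arrays compared, array weights or a replicate block, and 1 was higher than in 3F with median centring, cyclic loess, the mean of probe sets or only the arrays compared. Of the differences in the change to day 5, array weights gave 1 up and 2 down for 3F against R1, 2 up for 4F against R1 and 1 down for 4F against 3F. For 4F against R1 a replicate block gave 2 up and only the arrays compared 0. Of those in the change to day 11, 4F against R1 had 1 up with quantile normalization, cyclic loess, dim genes left out, only the arrays compared or a replicate block and 2 with array weights. For 4F against 3F it was 2 up with only the arrays compared or array weights and 1 with a replicate block. The replicate block, used although no pairing is stated, ended no call of the 5 genes and added 5.

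With each array left out in turn, the count that fell from day 0 to day 5 ran from 0 to 3 in R1 and from 2 to 4 in 3F, and the count that rose in 4F from 1 to 2. At day 0, 0 to 1 were higher and 0 to 1 lower in 3F than in R1, and 0 to 1 lower in 4F than in R1. At day 5, 1 to 4 were higher in 4F than in R1, and 2 to 4 higher and 0 to 1 lower than in 3F. At day 11 it was 0 to 1 against R1 and 0 to 2 against 3F. For the change to day 5 the counts up ran from 0 to 2 for 4F against R1 and from 1 to 4 against 3F, and for the change to day 11 from 0 to 1 for 4F against R1. The causes of these shifts were not tested. Median centring moved the median of all genes by -0.12 in 4F from day 0 to day 11 and cyclic loess by 0.13 from day 5 to day 11. With 3 arrays a group, several of the differences between lines rest on single arrays, and dim probe sets, such as the third of Zic5, limit what can be seen.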
